A study of Mus musculus with 12 samples.

Results

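Tdh, Gcat, Gldc, Shmt1, Shmt2, Mthfd1, Mthfd2, Phgdh and Psat1 encode enzymes that make, break down or pass on serine, glycine and threonine and the one-carbon units taken from them. They were chosen by gene symbol, and all 9 were found among the 23420 genes of the deposited count tables. They were followed in RNA from mouse cells at 4 points of reprogramming to induced pluripotent stem cells, with 3 libraries each. The first group is MEF, mouse embryonic fibroblasts. Stage1 cells were collected at day 6, Stage2 cells 4 days later, and iPSC are established induced pluripotent stem cell cultures. All groups share a mixed strain background labelled C57BL/6 x 129. Per the series text, Stage1, Stage2 and iPSC cells had been sorted for Oct4-GFP, a reporter in which Pou5f1 (Oct4) drives green fluorescence, and MEF had not. The reprogramming factors and how they were delivered are not described in the labels, nor is whether the 3 libraries of a group came from separate cultures or animals, so p-values measure only the spread between these libraries.

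The group names rest on the library titles. In 12 of 12 libraries the stage listed among the sample characteristics named another group than the title, with Stage1-titled libraries listed as MEF, Stage2-titled ones as Stage1, iPSC-titled ones as Stage2 and MEF-titled ones as iPSC. Markers set the MEF-titled libraries apart. The summed level of 8 fibroblast markers was 16474 to 23420 CPM (counts per 1e+06 counts on genes, scaled by edgeR's TMM) in MEF, 15.7 to 16.9 CPM at Stage1, 89.8 to 132.8 CPM at Stage2 and 72.6 to 84.3 CPM in iPSC, where Lum was at 0. The summed level of 8 pluripotency markers was 4.52 to 5.62 CPM in MEF, with Lin28a at 0, then 1709 to 2215 CPM at Stage1, 3280 to 3640 CPM at Stage2 and 3472 to 3558 CPM in iPSC. These lists thus differ between Stage1 and the later groups too, but they do not say which libraries are which stage, so the directions between Stage1, Stage2 and iPSC stand only if the titles are right. In Stage2 against Stage1, 6 of the 8 fibroblast and 4 of the 8 pluripotency markers were higher, against 20.6% of all genes tested. In iPSC against Stage2, 5 of the 8 fibroblast and 1 of the 8 pluripotency markers were lower, against 8.87%. In iPSC against Stage1, 6 fibroblast and 3 pluripotency markers were higher, against 21.3% of all genes, and 2 fibroblast markers were lower, against 18.1%. The part of these markers in the differences between these groups was not tested.

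Serine is built from a glycolytic intermediate by Phgdh, Psat1 and the phosphatase Psph. The serine hydroxymethyltransferases Shmt1 (cytosol) and Shmt2 (mitochondria) cut serine into glycine and a one-carbon unit carried on folate. Mthfd1 in the cytosol and Mthfd2 in mitochondria interconvert the oxidation states of such folates, which feed the synthesis of purines, thymidylate and methionine. Glycine can also be split into a folate-bound one-carbon unit by the glycine cleavage system, whose decarboxylase is Gldc. Threonine dehydrogenase (Tdh) and glycine C-acetyltransferase (Gcat) together turn threonine into glycine and acetyl-CoA in mitochondria, and mouse embryonic stem cells are known for high Tdh and for depending on threonine in the medium.

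Gene counts numbered 8916223 to 19011944 per library. A count of 0 thus allowed a level of up to 0.181 CPM in MEF replicate 3 to 0.376 CPM in MEF replicate 1 (3 counts on the TMM scale). The other libraries lay between, and this limit covers counting error only. Reads outside genes made up 35.0% to 53.4% of reads in the reprogrammed groups and 8.86% to 9.42% in MEF. Structural RNA genes (such as those of ribosomal, small nucleolar and micro RNA) held 0.954% to 2.29% of gene counts in the reprogrammed groups. In MEF they held 4.62% to 12.9%, the most in replicate 2. Fits without these genes are given with the other settings. MEF replicate 1 stood apart from replicates 2 and 3 in sex-linked RNA, with 226.8 CPM of Xist, where replicates 2 and 3 had 0.267 CPM and none, and with 0.752 CPM of the Y-linked Ddx3y, where they had 126.8 and 127.4 CPM. Leaving it out ended no call on the 9 genes against MEF, but all MEF counts of Tdh and Gldc came from it. Without it, against a floor of 3 counts over MEF replicates 2 and 3, Tdh was at least 6760-fold higher in Stage1 and at least 2360-fold higher in iPSC, and Gldc at least 1040-fold and 1200-fold higher. A list of 6 macrophage markers summed to 8.16 to 29.4 CPM in the reprogrammed groups and to 112.6 to 122.7 CPM in MEF. A list of 4 endothelial markers summed to 46.0 to 108.5 CPM in the reprogrammed groups and to 0.626 to 5.25 CPM in MEF. Of these 4, 3 were called higher in Stage1 against MEF, where 44.2% of all genes were higher, and 1 had too few counts to be tested. The part of these lists and of the reads outside genes in the differences from MEF was not tested. In bulk RNA, a smaller share of cells using a gene cannot be told apart from less RNA per cell.

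The 9 genes split between higher and lower in the reprogrammed groups relative to MEF. In Stage1 against MEF, 5 of the 9 genes were higher (Tdh, Gcat, Gldc, Shmt1 and Mthfd1), 3 were lower (Shmt2, Phgdh and Psat1) and Mthfd2 was not called, by edgeR's quasi-likelihood test at a Benjamini-Hochberg adjusted p below 0.05 over 14770 genes. Most genes passed in this comparison: 44.2% were higher and 36.1% lower, or 80.4% in either direction, so the share of the 9 genes called is near that of all genes. The median log2 fold change of the 9 genes was 2.04, the value of Gcat, against 0.27 over all genes tested. With 5 genes higher and 3 lower, this median does not describe a common shift of the 9. In Stage2 against Stage1, 4 of the 9 (Tdh, Shmt1, Mthfd1 and Phgdh) were lower, where 19.8% of all genes were lower, 20.6% higher and 40.4% either. Of the 9 genes, 0 were higher by edgeR, also at an unadjusted p below 0.05, and 0 by DESeq2.

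In iPSC against Stage2, 4 of the 9 (Phgdh, Mthfd1, Shmt2 and Psat1) were higher, against 9.21% of all genes higher, 8.87% lower and 18.1% either. Again 0 of the 9 were lower, by edgeR with or without adjustment and by DESeq2. The calls on Shmt2 and Psat1 sat near the threshold, and each was lost on leaving out any 1 of the 6 Stage2 and iPSC libraries, which left 2 genes called. Their log2 fold changes without 1 of these libraries ranged from 0.50 to 0.64 for Shmt2 and from 0.37 to 0.49 for Psat1. In iPSC against Stage1, Shmt2 was higher and Tdh and Shmt1 lower, where 21.3% of all genes were higher, 18.1% lower and 39.4% either. In iPSC against MEF, the 5 genes higher at Stage1 were called higher, Phgdh and Psat1 were lower, and Shmt2 and Mthfd2 were not called, where 44.9% of all genes were higher, 35.8% lower and 80.8% either. These comparisons share groups, so their results are not independent of each other.

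**Figure D1:**
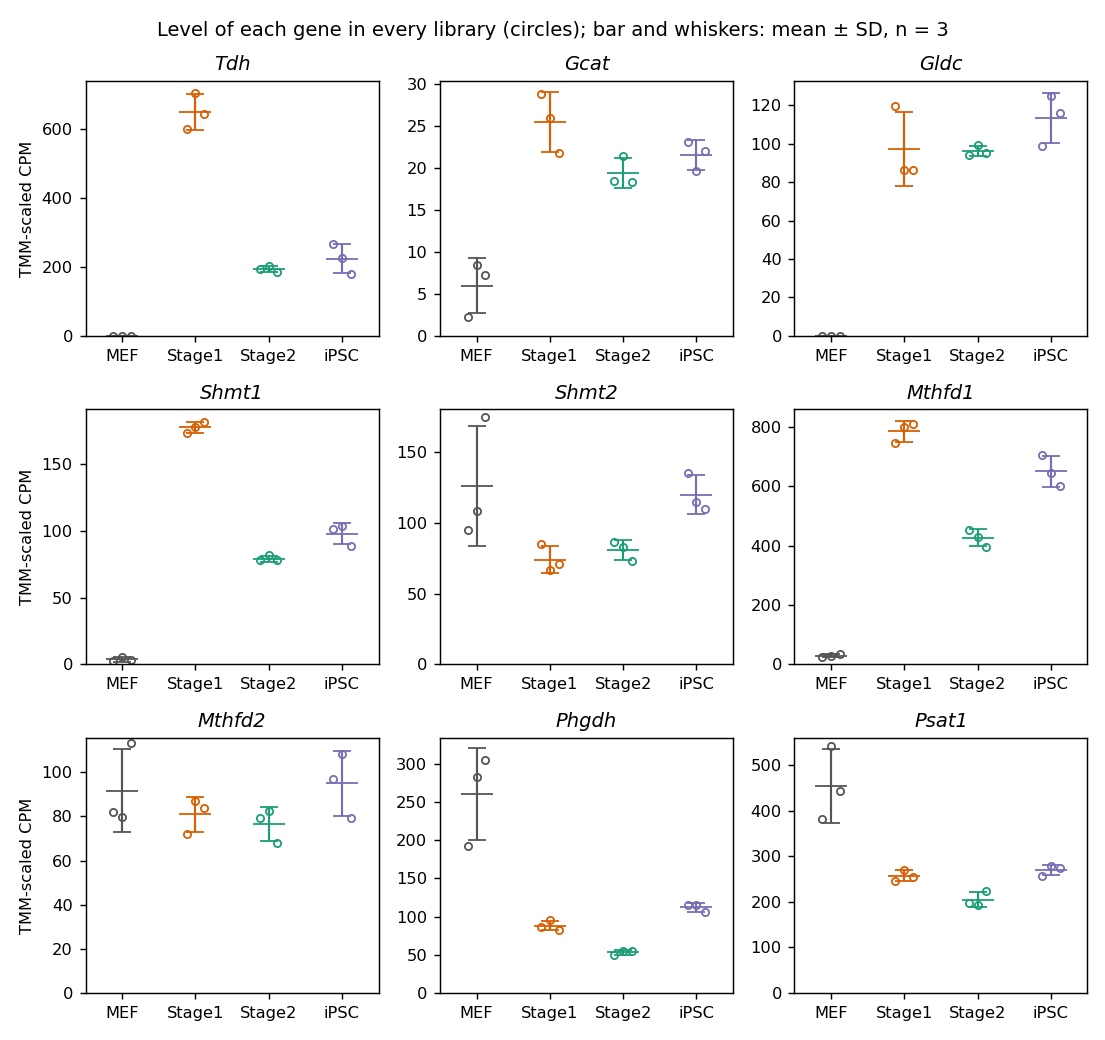
Level of each of the 9 genes by library, in TMM-scaled CPM on a linear axis starting at 0, for MEF, Stage1, Stage2 and iPSC (points are libraries, bars mean ± SD of 3). Tdh peaks at Stage1 with 598 to 702 CPM, Gldc stays between 86.0 and 124 CPM in all 9 reprogrammed libraries, and Phgdh is highest in MEF with 192 to 305 CPM.

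Tdh, which opens the breakdown of threonine (chromosome 14, 63492347 to 63509092, minus strand, GRCm38), was scarcely measured in MEF. Its level was 0.251, 0 and 0 CPM in MEF, from 2, 0 and 0 counts, then 598, 702 and 641 CPM at Stage1, 193, 202 and 186 CPM at Stage2, and 265, 227 and 180.0 CPM in iPSC. The 3 Stage1 libraries lay above all others, Stage2 and iPSC overlapped, and MEF was at or under the level that its depth could resolve. The ratio of Stage1 to MEF, from 24109 against 2 counts over 3 libraries each, was 12700 with a 95% counting interval of 3520 to 105000, and the call had an edgeR adjusted p of 7.09e-15. The ratio of iPSC to MEF was 4430, with an interval of 1230 to 36600. Tdh then fell by 1.74 ± 0.176 on the log2 scale (SE) in Stage2 against Stage1 (edgeR adjusted p = 9.22e-07). Against Stage1, iPSC too were lower, with a log2 fold change of -1.53 ± 0.175 (edgeR adjusted p = 2.85e-06). For iPSC against Stage2 the log2 fold change was 0.21 with an edgeR adjusted p of 0.425. The transcribed pseudogene Gm13929 is 97.1% identical to Tdh over 1125 bases and is absent from the count tables. Some reads of Tdh may thus have been left uncounted, or reads of Gm13929 counted for it.

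Gcat, the enzyme that takes the product of Tdh on to glycine (chromosome 15, 79030874 to 79042531, plus strand), was present at low levels throughout. Its levels were 2.25, 8.49 and 7.24 CPM in MEF, 28.8, 26.0 and 21.8 CPM at Stage1, 18.5, 21.4 and 18.4 CPM at Stage2 and 23.1, 19.7 and 22.1 CPM in iPSC. All 9 reprogrammed libraries lay above the 3 MEF libraries, and iPSC overlapped with both Stage1 and Stage2. Gcat rose in Stage1 against MEF by 2.04 ± 0.294 log2 units, and by 1.68 with MEF replicate 1 left out (edgeR adjusted p = 5.38e-06 with all libraries). Its log2 fold change in Stage2 against Stage1 was -0.39, with a 95% interval of -0.97 to 0.18 and an edgeR adjusted p of 0.268, so a fall as large as that of Tdh is outside the interval. Per kilobase of exon, the ratio of Tdh to Gcat was 32.8 to 46.5 at Stage1, 14.9 to 16.5 at Stage2 and 12.9 to 18.2 in iPSC, with no overlap between Stage1 and the later groups. The exon length of Gcat includes a second, longer gene model under the same symbol, and Galr3, which shares 363 exon bases with Gcat, had at most 2 counts in any library.

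Gldc, the glycine decarboxylase (chromosome 19, 30098441 to 30175441, minus strand), had 0.125, 0 and 0 CPM in MEF, from 1, 0 and 0 counts. It stood at 119, 86.0 and 86.3 CPM at Stage1, 94.3, 99.0 and 95.1 CPM at Stage2, and 98.9, 124 and 116 CPM in iPSC. The gene was at the edge of detection in MEF and overlapped between all 3 reprogrammed groups. The ratio of Stage1 to MEF was 3910, with a 95% counting interval of 702 to 155000 from 3714 against 1 counts (edgeR adjusted p = 2.33e-14). Its log2 fold change between Stage2 and Stage1 was -0.02 with an interval of -0.36 to 0.33 (edgeR adjusted p = 0.943), a sign that turned under several other settings.

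The partners of Gldc in the cleavage system did not all follow it. Amt, the aminomethyltransferase, averaged 83.9 ± 9.86 CPM at Stage1 and 0.427 ± 0.216 CPM in MEF (SD, n = 3 each), a log2 fold change of 7.5025 ± 0.254 (edgeR adjusted p = 3.54e-14). Its log2 fold change in Stage2 against Stage1 was -0.11 (edgeR adjusted p = 0.625). Gcsh, the lipoyl carrier protein, averaged 172 ± 24.8 CPM at Stage1 and already 105 ± 20.2 CPM in MEF (log2 fold change 0.72 ± 0.152, edgeR adjusted p = 0.000328), and then fell by 0.98 ± 0.153 log2 units at Stage2 (edgeR adjusted p = 8.33e-05). Dld, the dihydrolipoamide dehydrogenase shared with other mitochondrial complexes, rose by 0.68 ± 0.127 log2 units in Stage1 against MEF and fell by 0.67 ± 0.127 in Stage2 against Stage1 (edgeR adjusted p = 9.9e-05 and 0.000495). The decarboxylase and the aminomethyltransferase were thus the pair that were scarcely measured in MEF, while the other two subunits were present there.

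The serine synthesis genes ran the other way. Phgdh, the first enzyme of the route (chromosome 3, 98313171 to 98339969, minus strand), had 192, 283 and 305 CPM in MEF, then 86.7, 94.9 and 82.9 CPM at Stage1, 49.7, 55.1 and 54.5 CPM at Stage2, and 115, 115 and 105 CPM in iPSC. No library of one group overlapped with another group in this order, with Stage2 lowest and MEF highest. Phgdh fell by 1.56 ± 0.154 log2 units in Stage1 against MEF (edgeR adjusted p = 4.19e-08). It fell by a further 0.73 ± 0.153 in Stage2 against Stage1 (edgeR adjusted p = 0.00115). It then rose by 1.07 ± 0.154 in iPSC against Stage2 (edgeR adjusted p = 0.000264), and in iPSC against MEF it was lower by a log2 fold change of -1.22 ± 0.153 (edgeR adjusted p = 9.5e-07). The genome holds 19 other genes with at least 90% identity to Phgdh over at least 200 bases, 17 of them pseudogenes, so some of its reads may have been left uncounted. The 2 of these in the count tables, Gm6756 and Gm8096, had at most 8 and 4 counts in a library. By the same measure Tdh, Shmt2 and Psat1 have 1 such copy each, a pseudogene absent from the count tables. For Psat1 it is 91.0% identical over 1056 bases, and for Shmt2 90.1% over 233 bases. Gcat, Gldc, Shmt1, Mthfd1 and Mthfd2 have none.

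Psat1, the aminotransferase that follows Phgdh (chromosome 19, 15905123 to 15925059, minus strand), had 380.5, 542 and 442 CPM in MEF, then 246, 270.2 and 254 CPM at Stage1, 198, 193 and 223 CPM at Stage2, and 257, 279 and 273 CPM in iPSC. MEF lay above every other library, Stage2 below every other library, and Stage1 and iPSC overlapped. It fell by 0.83 ± 0.135 log2 units in Stage1 against MEF (edgeR adjusted p = 2.31e-05). The log2 fold change in Stage2 against Stage1 was -0.33 with an edgeR adjusted p of 0.0623. The rise in iPSC against Stage2 was 0.40 ± 0.135 (edgeR adjusted p = 0.0494), the call that was lost without any 1 of the Stage2 or iPSC libraries. In iPSC against MEF it was lower by a log2 fold change of -0.75 ± 0.135 (edgeR adjusted p = 6.02e-05), and of -0.46 with library totals in place of TMM, which shifts the median of all genes by 0.28 in this comparison. Psph, the last enzyme of the route, had the same order of low Stage2 and higher iPSC. It averaged 50.1 ± 3.86 CPM at Stage1 and 81.6 ± 2.06 CPM in MEF, a log2 fold change of -0.71 ± 0.137 (edgeR adjusted p = 0.000143). It averaged 71.8 ± 9.59 CPM in iPSC and 42.0 ± 3.45 CPM at Stage2, a rise of 0.77 ± 0.138 (edgeR adjusted p = 0.00141). All 3 enzymes of the route were thus lower at Stage1 than in MEF. In iPSC against Stage2, Phgdh and Psph were higher, while the call on Psat1 was also lost with RLE scaling, library totals, either other filter on low counts, the replicate block and without structural RNA genes.

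Promoter sequence is shown for 2 genes that rose at Stage1 against MEF (Gldc and Mthfd1) and 2 that fell (Phgdh and Psat1), to let the windows of the opposed groups be read side by side. The windows are RefSeq's on GRCm38.p6, 250 bases before to 50 after a start, in the direction of the gene, and 8 of the 9 genes matched with 9 windows, Psat1 having 2. Tdh is not among them. Capitals mark GGGCGG (a GC box) and CCAAT on either strand, and no marked match overlaps another. The windows lie at chr19:30175392-30175691 (minus) for Gldc, chr12:76254982-76255281 (plus) for Mthfd1, chr3:98339920-98340219 (minus) for Phgdh and chr19:15925010-15925309 (minus) for Psat1.
Gldc: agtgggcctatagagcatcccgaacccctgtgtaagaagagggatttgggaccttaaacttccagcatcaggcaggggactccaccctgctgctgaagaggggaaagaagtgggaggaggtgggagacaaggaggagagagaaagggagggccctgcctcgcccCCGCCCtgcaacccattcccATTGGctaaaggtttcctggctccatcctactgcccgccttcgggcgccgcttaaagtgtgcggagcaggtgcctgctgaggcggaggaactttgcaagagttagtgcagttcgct
Mthfd1: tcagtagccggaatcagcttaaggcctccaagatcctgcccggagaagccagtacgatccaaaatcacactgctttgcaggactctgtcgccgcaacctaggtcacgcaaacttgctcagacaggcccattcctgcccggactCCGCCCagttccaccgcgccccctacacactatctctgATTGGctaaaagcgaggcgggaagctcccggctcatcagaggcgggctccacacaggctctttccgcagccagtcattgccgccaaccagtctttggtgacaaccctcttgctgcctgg
Phgdh: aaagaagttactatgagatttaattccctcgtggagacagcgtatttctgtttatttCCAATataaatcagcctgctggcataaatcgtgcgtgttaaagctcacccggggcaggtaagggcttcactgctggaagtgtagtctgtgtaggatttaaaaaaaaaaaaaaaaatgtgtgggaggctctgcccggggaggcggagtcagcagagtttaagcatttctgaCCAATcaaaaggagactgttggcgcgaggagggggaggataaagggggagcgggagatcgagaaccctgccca
Psat1: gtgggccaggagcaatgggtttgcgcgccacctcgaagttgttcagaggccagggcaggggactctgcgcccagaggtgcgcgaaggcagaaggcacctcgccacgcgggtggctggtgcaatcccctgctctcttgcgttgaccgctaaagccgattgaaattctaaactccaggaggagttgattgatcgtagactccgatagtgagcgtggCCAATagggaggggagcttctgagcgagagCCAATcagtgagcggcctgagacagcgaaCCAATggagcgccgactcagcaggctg

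The Gldc and Mthfd1 windows each hold 1 GC box and 1 CCAAT, the Phgdh window holds 2 CCAAT and the Psat1 window shown holds 3. The other Psat1 window holds 2 GC boxes and no CCAAT. Of the windows not shown, that of Shmt1 holds 4 GC boxes and 1 CCAAT, that of Gcat 1 GC box and no CCAAT, that of Mthfd2 3 CCAAT and that of Shmt2 neither. The windows shown are examples, and no difference in motifs between the genes that rose and those that fell was tested. Over all 9 windows, GGGCGG was found in 5 and CCAAT in 6, against 35.7% and 37.4% of 32851 promoter windows of the same length. CACGTG, the E-box bound by Myc family proteins, was in 1 window, that of Gcat, and in 7.15% of all. TGATGNAA, one form of the amino acid response element, was in 0 windows and 3.97% of all. ATGCAAAT, the octamer bound by Oct4, was in 0 and 1.74%, and TTTNGCGC, a form of the E2F site, in 0 and 1.38%. All motifs were searched on both strands, and these are matches of letters, not measured sites.

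The serine hydroxymethyltransferases took different courses. Shmt1, the cytosolic form (chromosome 11, 60788897 to 60811265, minus strand), had 2.38, 5.62 and 3.20 CPM in MEF, then 173, 178 and 182 CPM at Stage1, 78.1, 81.7 and 77.9 CPM at Stage2, and 101, 104 and 88.7 CPM in iPSC. The 4 groups did not overlap. Shmt1 rose by 5.52 ± 0.218 log2 units in Stage1 against MEF (edgeR adjusted p = 2.2e-13) and fell by 1.17 ± 0.171 in Stage2 against Stage1 (edgeR adjusted p = 4.65e-05). In iPSC against Stage2 its log2 fold change was 0.31 with an edgeR adjusted p of 0.226. The libraries of iPSC and Stage2 did not overlap, but the difference did not pass the test.

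Shmt2, the mitochondrial form (chromosome 10, 127517123 to 127522444, minus strand), had 94.96, 109 and 174 CPM in MEF, then 84.8, 66.7 and 70.5 CPM at Stage1, 86.3, 82.6 and 73.0 CPM at Stage2, and 135, 115 and 109.5 CPM in iPSC. MEF and iPSC overlapped, as did Stage1 and Stage2, with MEF and iPSC above Stage1 and Stage2. Shmt2 was lower in Stage1 against MEF by a log2 fold change of -0.77 ± 0.188 (edgeR adjusted p = 0.00115). MEF replicate 3 was the highest library, and without it the log2 fold change was -0.46. Between iPSC and Stage1 it was 0.69 ± 0.187 higher in iPSC (edgeR adjusted p = 0.00707), and in iPSC against Stage2 0.57 ± 0.187 higher (edgeR adjusted p = 0.0423). The latter call was lost without any 1 of the Stage2 or iPSC libraries. It was also lost without Stage1 replicate 2 or structural RNA genes, with library totals in place of TMM and with the replicate block. Ndufa4l2 on the opposite strand shares 32 exon bases with Shmt2 and had 15 to 656 counts per library. Whether the libraries or the counting kept strands apart is not given in the sources used here, which also bears on Tdh and Mthfd1, where the annotation places the antisense genes Gm17232 and Gm34868.

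Set per kilobase of exon, the ratio of Shmt2 to Shmt1 was 49.5, 24.0 and 67.6 in MEF, 0.607, 0.464 and 0.481 at Stage1, 1.37, 1.25 and 1.16 at Stage2 and 1.65, 1.37 and 1.53 in iPSC. The mitochondrial form was thus the more abundant transcript in MEF, the cytosolic form at Stage1, and the mitochondrial form by a small margin at Stage2 and in iPSC.

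Mthfd1 was the most abundant of the 9 genes per kilobase at Stage2 and in iPSC. This cytosolic trifunctional folate enzyme (chromosome 12, 76254406 to 76319820, plus strand) had 26.2, 27.4 and 35.7 CPM in MEF, then 745, 798 and 809 CPM at Stage1, 452, 430.3 and 396 CPM at Stage2, and 704, 644 and 600.0 CPM in iPSC. The 4 groups did not overlap, with Stage1 highest. Mthfd1 rose by 4.71 ± 0.158 log2 units in Stage1 against MEF (edgeR adjusted p = 3.23e-14) and fell by 0.88 ± 0.135 in Stage2 against Stage1 (edgeR adjusted p = 6.86e-05). It rose again by 0.61 ± 0.134 in iPSC against Stage2 (edgeR adjusted p = 0.0059). In iPSC against Stage1 its log2 fold change was -0.27 with an edgeR adjusted p of 0.118.

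Mthfd2, the mitochondrial dehydrogenase and cyclohydrolase (chromosome 6, 83305704 to 83326011, minus strand), was the 1 gene of the 9 that no comparison called. It had 82.1, 79.6 and 113 CPM in MEF, 71.9, 87.2 and 83.7 CPM at Stage1, 79.3, 82.3 and 68.0 CPM at Stage2, and 97.1, 108 and 79.4 CPM in iPSC. In order of level, each group overlapped with its neighbours. In Stage1 against MEF its log2 fold change was -0.18 with a 95% interval of -0.52 to 0.16 (edgeR adjusted p = 0.302). The ratio of Mthfd2 to Mthfd1 per kilobase was 4.52 to 4.93 in MEF, 0.150 to 0.170 at Stage1, 0.267 to 0.297 at Stage2 and 0.206 to 0.262 in iPSC. The 4 ranges did not overlap, while of the 2 transcripts Mthfd1 alone was called.

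**Figure D2:**
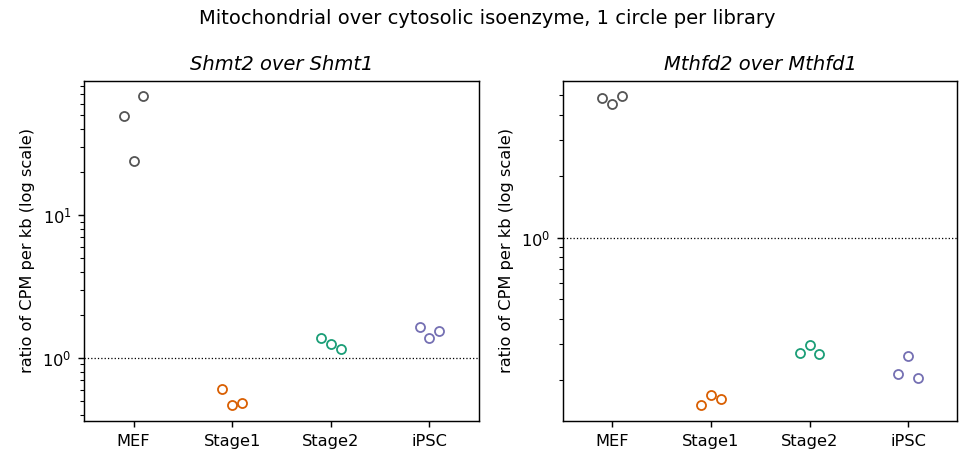
Ratio of the mitochondrial to the cytosolic transcript per kilobase of exon in each library, on a log axis with a dotted line at a ratio of 1, for Shmt2 over Shmt1 and Mthfd2 over Mthfd1. Shmt2 over Shmt1 lies at 24.0 to 67.6 in MEF, under 1 at Stage1 and just above 1 at Stage2 and in iPSC, and Mthfd2 over Mthfd1 is above 1 in MEF alone.

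Other mitochondrial folate enzymes next to Mthfd2 moved in both directions. Mthfd1l, which releases formate from mitochondria, averaged 163 ± 15.2 CPM at Stage1 and 54.5 ± 23.4 CPM in MEF, a rise of 1.57 ± 0.205 log2 units (edgeR adjusted p = 1.57e-06). Its log2 fold change was -0.11 in Stage2 against Stage1 (edgeR adjusted p = 0.699). Mthfd2l, a related dehydrogenase, averaged 8.71 ± 0.492 CPM at Stage1 and 15.8 ± 2.76 CPM in MEF, and fell by 0.86 ± 0.239 log2 units there and by 0.78 ± 0.248 in Stage2 against Stage1 (edgeR adjusted p = 0.00318 and 0.0181). Aldh1l2, which oxidises the mitochondrial formyl folate, averaged 11.3 ± 2.55 CPM at Stage1 and 180.9 ± 33.8 CPM in MEF, a log2 fold change of -4.01 ± 0.195 (edgeR adjusted p = 3.27e-12). Mthfd1l thus rose in Stage1 against MEF where Mthfd2l and Aldh1l2 fell.

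Ordered by level per kilobase of exon, the 9 genes changed rank between groups. In MEF, Psat1 (155 CPM per kb) and Phgdh (137) led, followed by Shmt2 (54.6) and Mthfd2 (44.0), with Mthfd1 at 9.18, Gcat at 2.02 and Shmt1 at 1.31 CPM per kb. At Stage1, Tdh (344 CPM per kb) and Mthfd1 (242) led, with Psat1 at 87.4 and Shmt1 at 62.2. At Stage2 Mthfd1 (131.5 CPM per kb) stood above Tdh (102.9), and in iPSC likewise (200.3 and 119). Gcat was last in each of the 3 reprogrammed groups.

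**Figure D3:**
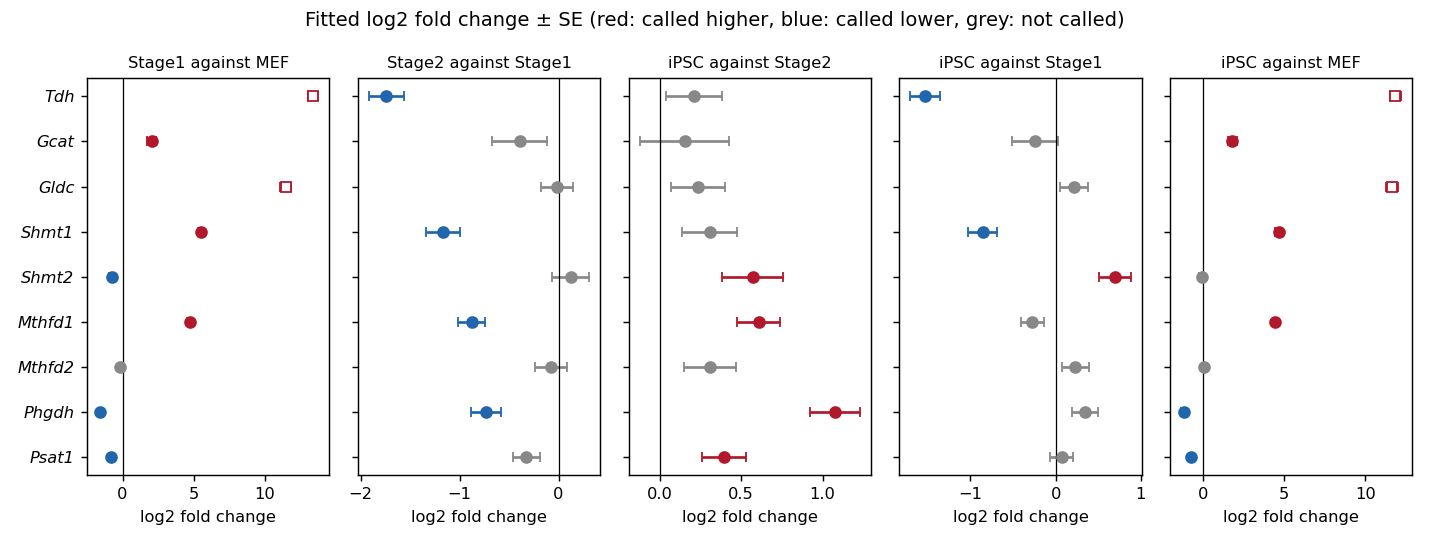
Log2 fold change ± SE of the 9 genes in the 5 comparisons, from the edgeR fit, in red for genes called higher, blue for lower and grey for not called, with an axis range of its own in each panel. Open squares mark Tdh and Gldc against MEF, where MEF held 2 and 1 counts in all and the fitted value depends on the prior count. In Stage1 against MEF the genes spread to both sides of 0, and in Stage2 against Stage1 the called genes are all below 0.

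A list of 8 S-phase markers summed to 541 to 636 CPM in MEF, 3544 to 3647 CPM at Stage1, 2694 to 2959 CPM at Stage2 and 3427 to 3944 CPM in iPSC. All 8 were higher in Stage1 against MEF, where 44.2% of all genes were higher. In Stage2 against Stage1, 2 were lower (19.8% of all genes), and in iPSC against Stage2, 2 were higher (9.21%). The other 6 were not called in either case. In iPSC against Stage1, 1 was higher and 1 lower (21.3% and 18.1% of all genes). Their part in the differences in Mthfd1 and the folate genes was not tested.

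Among 62 other genes of serine, glycine, folate, methionine and purine metabolism, 55 passed the filter on low counts. The 7 that did not (Sds, Sdsl, Ftcd, Mat1a, Bhmt2, Gnmt and Slc7a10) reached at most 1.52 CPM in a library. In Stage1 against MEF, 30 of the 55 were higher and 18 lower, or 87.3% called against 80.4% of all genes. In Stage2 against Stage1, 5 were higher and 27 lower (58.2% called, against 40.4% of all genes), and the median log2 fold change was -0.45, against 0.02 over all genes. In iPSC against Stage2, 11 were higher and 5 lower (29.1%, against 18.1%). In iPSC against Stage1, 8 were higher and 22 lower (54.5%, against 39.4%), and in iPSC against MEF 26 were higher and 20 lower (83.6%, against 80.8%).

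The 6 enzymes of purine synthesis, which draws on formyl folate and glycine, were all higher in Stage1 against MEF and all lower in Stage2 against Stage1 (5 of 6 lower with library totals in place of TMM), where 44.2% of all genes were higher and 19.8% lower in these comparisons. Ppat, the first enzyme of that route, averaged 394 ± 40.3 CPM at Stage1 and 27.99 ± 6.88 CPM in MEF, a rise of 3.82 ± 0.180 log2 units (edgeR adjusted p = 2.23e-12). Pfas, a later enzyme, rose by 2.75 ± 0.182 (edgeR adjusted p = 1.89e-10). Adsl and Atic fell most in Stage2 against Stage1, by 1.09 ± 0.123 and 1.06 ± 0.147 log2 units (edgeR adjusted p = 3.07e-06 and 2.63e-05). In iPSC against Stage2, 2 of the 6 were higher (9.21% of all genes), with Gart up by 0.69 ± 0.130 and Paics by 0.55 ± 0.117 (edgeR adjusted p = 0.0021 and 0.00457).

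Of 5 tested genes of serine synthesis and other serine and threonine enzymes, 1 was higher and 3 were lower in Stage1 against MEF, or 80.0% called against 80.4% of all genes. Thnsl1, a threonine synthase-like gene, averaged 16.8 ± 1.80 CPM at Stage1 and 5.89 ± 2.10 CPM in MEF, and rose by 1.54 ± 0.227 log2 units (edgeR adjusted p = 6.81e-06). It rose by a further 0.92 ± 0.210 in Stage2 against Stage1 (edgeR adjusted p = 0.00211). Srr, serine racemase, fell by 0.83 ± 0.260 in Stage1 against MEF (edgeR adjusted p = 0.00717).

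In the mitochondrial folate list, 5 of 9 genes were higher and 4 lower in Stage1 against MEF (44.2% and 36.1% of all genes), and 6 were lower in Stage2 against Stage1 (19.8% of all genes). Among genes averaging at least 5 CPM in the higher group, its 2 largest log2 fold changes at Stage1 were falls. Sardh, sarcosine dehydrogenase, averaged 0.477 ± 0.408 CPM at Stage1 and 18.03 ± 5.69 CPM in MEF, a log2 fold change of -5.16 ± 0.545 (edgeR adjusted p = 1.04e-07). Sfxn3, of the sideroflexin family of mitochondrial serine carriers, averaged 3.83 ± 1.10 CPM at Stage1 and 106 ± 19.4 CPM in MEF (log2 fold change -4.80 ± 0.267, edgeR adjusted p = 1.88e-11). Sfxn1 of the same family went the other way, with 100.3 ± 2.78 CPM at Stage1 and 64.1 ± 7.57 CPM in MEF. Its log2 fold change was 0.64 ± 0.136 (edgeR adjusted p = 0.00032). The mitochondrial folate carrier Slc25a32 fell by 1.08 ± 0.168 log2 units, and the formyltransferase Mtfmt by 0.84 ± 0.196, in Stage2 against Stage1 (edgeR adjusted p = 7.87e-05 and 0.00242).

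Of 10 cytosolic folate genes tested, 3 were higher and 2 lower in Stage1 against MEF, where 80.4% of all genes were called. Folr1, a folate receptor, was called higher in all 5 comparisons, with 1.41 ± 0.689 CPM in MEF, 5.62 ± 1.46 CPM at Stage1, 9.51 ± 0.845 CPM at Stage2 and 19.2 ± 3.69 CPM in iPSC.

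All 11 genes tested of the methionine cycle and transsulfuration were called in Stage1 against MEF, 9 higher and 2 lower (80.4% of all genes were called), and 7 were lower in Stage2 against Stage1 (19.8% of all genes). Cbs, which joins homocysteine to serine, had 29.5, 30.0 and 28.6 CPM in Stage1 libraries, while MEF libraries had 0, 0 and 0.663 CPM. Nnmt, which spends methyl groups on nicotinamide, had 0, 0.0895 and 0.168 CPM in Stage1 libraries, while MEF libraries had 32.2, 39.4 and 40.4 CPM. The groups did not overlap for either gene. From there, in Stage2 against Stage1, Cbs fell by 1.54 ± 0.310 log2 units, and Mat2a, which makes S-adenosylmethionine, by 1.10 ± 0.162 (edgeR adjusted p = 0.000794 and 4.52e-05).

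**Figure D4:**
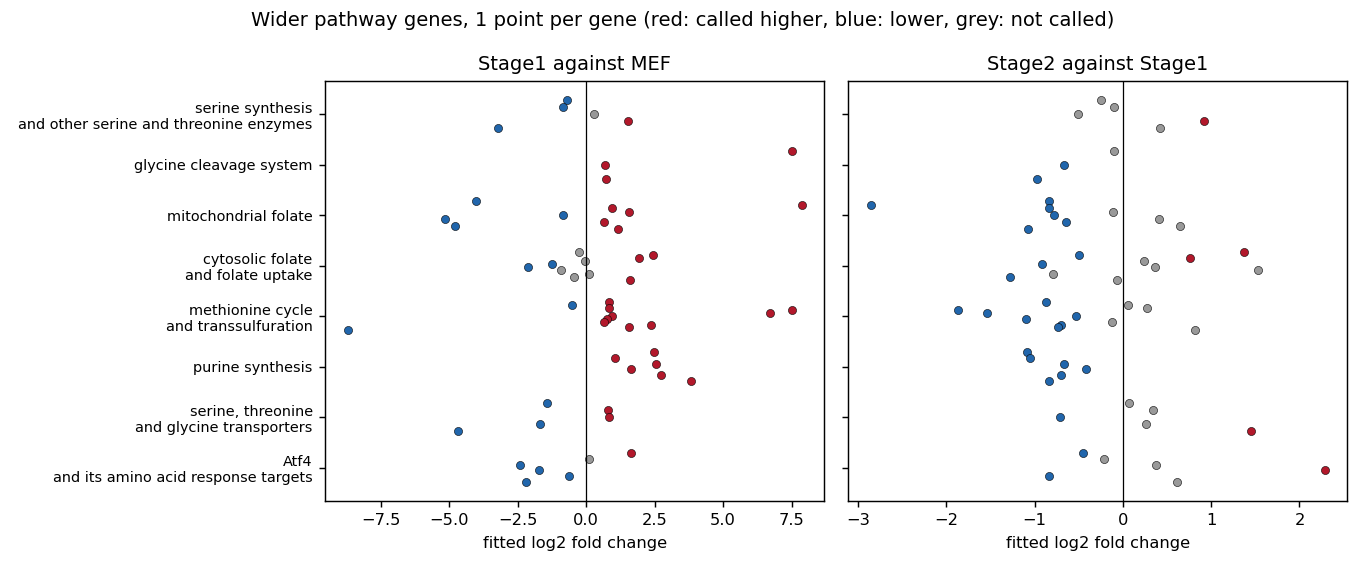
Log2 fold change of each of the tested genes of the 8 wider lists in Stage1 against MEF and in Stage2 against Stage1 (1 point per gene, grouped by list, in red for called higher, blue for lower and grey for not called). The 6 purine synthesis genes lie above 0 in Stage1 against MEF and below 0 in Stage2 against Stage1, while the other lists hold points on both sides in Stage1 against MEF except the 3 of the glycine cleavage system.

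Over the 12 libraries, the genes whose log2 CPM followed a member most closely (Pearson's r) were Nefl (0.998) for Tdh, Stxbp2 (0.987) for Gcat, Wdr76 (0.998) for Gldc, Pcgf6 (0.996) for Shmt1 and Dna2 (0.999) for Mthfd1. For the others they were Eif4ebp1 (0.960) for Shmt2, Ccnd1 (0.854) for Mthfd2, Rpl37a (0.980) for Phgdh and Smim7 (0.980) for Psat1. The nearest genes were others once MEF was left out. Over the 9 libraries without MEF, 0 of the 3 nearest genes were shared with those over 12 for any of the 9 genes, and Pwp2 (0.995) stood first for Tdh. Among the 9 genes themselves, Tdh and Shmt1 had r = 0.983 over 12 libraries and 0.983 over the 9, and Phgdh and Psat1 had 0.968 and 0.927. Tdh and Gldc, at 0.986 over 12, had -0.314 over the 9, where Tdh fell after Stage1 and Gldc was not called. These correlations across libraries that share their groups are descriptions only.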

How the data were processed

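RNA from 12 libraries, 3 per group, was measured by RNA-seq. Per the labels' protocols, RNA was extracted with a miRNeasy kit and made into Illumina libraries. The authors deposited raw counts per gene symbol. Per the submitters' processing notes, the tools were TopHat2 2.0.9, Bowtie2 2.2.6, SAMtools 0.1.19, HTSeq 0.5.4p3 and DESeq2 1.12.4, with build mm10 (GRCm38). Strandedness and the annotation version are not given in the sources used here. The lines of HTSeq that name no gene stayed out of totals and tests (their largest, reads outside genes, is given with the depths).

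Groups follow the titles. One fit of all 4 groups used edgeR 4.0.16 with limma 3.58.1 in R 4.3.3 (TMM, filterByExpr by group leaving 14770 genes, robust quasi-likelihood test, Benjamini-Hochberg adjustment over all of them, threshold 0.05), and its common biological coefficient of variation was 0.19. SE was obtained by dividing the size of the log2 fold change by the root of F. Levels are TMM-scaled CPM, and levels per kilobase use GENCODE M21 exon unions. Correlations used log2 CPM with a prior count of 2. The code was tested on simulated data in which far fewer genes changed than were called here, so that test does not bear on such broad differences. Alternatives were RLE scaling, library totals, other filters, DESeq2 1.42.0, the replicate number as a block, a fold threshold of 1.5, fits of only the groups compared, leaving out 792 structural RNA genes, and leaving out each library.

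The members, the lists and the tests were chosen with earlier results of these data known. Named genes are the 9 members, their direct partners (Psph, Amt, Gcsh, Dld, Mthfd1l, Mthfd2l and Aldh1l2), and per list and comparison the 2 called genes with the largest log2 fold change whose higher group averaged 5 CPM or more. Asns and Sfxn1 were added because they ran against the genes named from their lists, and the rise of Slc6a9 at Stage2 lies below 5 CPM. The nearest genes by correlation had to reach the same level and carry no clone or predicted name. Examples are given only for some comparisons, and 2 genes that the rule names are not reported here.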

Additional observations from a re-analysis of the deposited data

How the results depend on the processing

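In Stage1 against MEF and in iPSC against MEF, the counts of called members and pathway genes stayed within 1.5 times of those reported under the settings run, except that members lower in iPSC against MEF numbered 1 with a fold threshold of 1.5. That threshold also gave 3 pathway genes higher and 9 lower in Stage2 against Stage1, 1 member and 0 pathway genes higher and 2 pathway genes lower in iPSC against Stage2, and 0 members higher, 1 member lower, 4 pathway genes higher and 5 lower in iPSC against Stage1. Library totals in place of TMM gave 8 pathway genes higher in Stage2 against Stage1, 2 members higher and 8 pathway genes lower in iPSC against Stage2, and 2 members higher in iPSC against Stage1. Fitting only the 2 groups compared gave 10 pathway genes higher in Stage2 against Stage1, 17 higher and 11 lower in iPSC against Stage2, and 2 members higher in iPSC against Stage1. Without structural RNA genes, 2 members were higher and 8 pathway genes lower in iPSC against Stage2, RLE scaling and DESeq2 also gave 8 pathway genes lower there, and DESeq2 gave 2 members higher in iPSC against Stage1. The cause was not tested.

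Leaving out each library gave 4 to 8 pathway genes higher in Stage2 against Stage1 (8 without MEF replicate 3). In iPSC against Stage2 it gave 2 to 4 members higher, with 2 also without Stage1 replicate 2, 5 to 16 pathway genes higher (5 without Stage2 replicate 2 or iPSC replicate 2) and 3 to 10 lower (3 without iPSC replicate 3, 10 without MEF replicate 3). In iPSC against Stage1 it gave 1 to 2 members higher (2 without MEF replicate 1 or 3) and 6 to 13 pathway genes higher (13 without MEF replicate 3). Of 540 single-gene values so made, 512 kept their direction and side of the threshold, 15 lost the call, 5 gained one and 8 changed sign. Of 405 under the other settings the numbers were 373, 17, 6 and 9.

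The signs that changed were of members not called, and the values that follow are log2 fold changes. Gldc in Stage2 against Stage1 was 0.047 with RLE scaling, 0.18 with library totals, 0.016 without a filter, 0.028 with the 2 groups alone, 0.018 without structural RNA genes, 0.045 with DESeq2 and -0.11 to 0.14 on leaving out each library. Shmt2 in iPSC against MEF was 0.21 with library totals and -0.27 to 0.24 on leaving out each library. Mthfd2 in Stage1 against MEF was -0.29 to 0.0060 on leaving out each library, and in Stage2 against Stage1 0.13 with library totals. Mthfd2 in iPSC against MEF was -0.018 with the 2 groups alone and -0.067 to 0.24 on leaving out each library.

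Replicate numbers were not taken to pair the libraries, since the labels do not say what they mark. Of 18 same-numbered pairs, those with MEF included, 3 had correlated deviations over 0.1 (range -0.0675 to 0.197). The 9 such pairs among Stage1, Stage2 and iPSC were all above 0 (0.0107 to 0.197), and in 16 of 18 cases a library there correlated best with its own number in another group, a hint from the data, not from the design. With the replicate block, 2 members in place of 4 were higher in iPSC against Stage2. Library totals shifted the median log2 fold change of all genes by 0.18, 0.20, -0.10, 0.10 and 0.28 in Stage1 against MEF, Stage2 against Stage1, iPSC against Stage2, iPSC against Stage1 and iPSC against MEF, and turned no called member. Depth limits Tdh and Gldc in MEF, where their ratios rest on 2 counts and 1 count.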

Other observations

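Carriers of serine, threonine and glycine were not all higher in the reprogrammed cells. Of the 5 transporters tested, 2 were higher and 3 lower in Stage1 against MEF, and 1 was higher and 4 lower in iPSC against MEF, where 80.4% and 80.8% of all genes were called in these comparisons. Slc6a9, a glycine transporter, averaged 1.18 ± 0.383 CPM at Stage1 and 30.2 ± 10.9 CPM in MEF (SD, n = 3 each), a log2 fold change of -4.70 ± 0.366 (edgeR adjusted p = 1.76e-09). It rose by 1.45 ± 0.381 in Stage2 against Stage1 (edgeR adjusted p = 0.00594). Slc38a2, a carrier of small neutral amino acids, averaged 146 ± 11.3 CPM at Stage1 and 471 ± 83.5 CPM in MEF, and fell by 1.69 ± 0.161 log2 units (edgeR adjusted p = 2.75e-08). It fell by a further 1.05 ± 0.160 in iPSC against Stage2 (edgeR adjusted p = 0.000444).

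Atf4 is a transcription factor of the response to amino acid shortage, known to act on Phgdh, Psat1, Shmt2 and Mthfd2. Its RNA was called in none of the 5 comparisons, with 425 ± 36.2 CPM at Stage1 and 393 ± 37.9 CPM in MEF. The level and activity of the Atf4 protein were not measured, and its part in the differences in those genes was not tested. Of the 6 genes of the Atf4 list, 1 was higher and 4 lower in Stage1 against MEF, or 83.3% called, near the 80.4% of all genes. The higher one was Asns, with 744, 816 and 820 CPM in Stage1 libraries and 209, 242 and 322 CPM in MEF libraries. Chac1 fell by 2.41 ± 0.327 log2 units in Stage1 against MEF and Trib3 by 2.21 ± 0.337 (edgeR adjusted p = 2.55e-06 and 1.06e-05). Ddit3, a stress-induced transcription factor, had a mean of 31.7 ± 5.95 CPM in Stage2 libraries and 6.46 ± 1.66 CPM in Stage1 libraries, a rise of 2.29 ± 0.252 (edgeR adjusted p = 2.4e-06), while Sesn2 fell by 0.84 ± 0.238 (edgeR adjusted p = 0.00967).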
